A study of Mus musculus with 24 samples.

Results

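The genes described here encode nucleases and other restraints that keep a cell's own nucleic acids from setting off innate immune sensors. They were 8 genes chosen by name from the deposited gene table, which lists 45706 genes: Trex1, Dnase2a, Samhd1, Banf1, the RNase H2 subunit genes Rnaseh2a, Rnaseh2b and Rnaseh2c, and Adar. RNA had been sequenced from MEFs, the primary fibroblasts that grow from dissociated mouse embryos, of the strain given as C57B1/6. The cells were either knockout for cGAS (KO) or wild type (WT). Both genotypes had been kept in 20% oxygen, and RNA was taken on days 33, 36 and 42, at passages 11, 12 and 14. The labels list 4 numbered samples for each of the 6 combinations of genotype and day, and they do not say how the knockout was made, how many embryos were used or whether the days were separate cultures.

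cGAS is an enzyme of the cytosol and nucleus that binds DNA of any origin and makes a cyclic dinucleotide, which activates STING and then the interferon genes. A cell's own DNA and RNA stay below the threshold of such sensors because nucleases degrade stray DNA, because ribonucleotides are cut out of the genome, because chromatin proteins cover nuclear DNA, and because editing disrupts paired RNA strands that MDA5 would bind. In humans, inherited loss of TREX1, SAMHD1, ADAR or a subunit of RNase H2 causes Aicardi-Goutières syndrome, an inflammatory disease with a raised interferon response.

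The 4 samples of each group differed by less than the sampling noise (chi-square per degree of freedom 0.833 to 0.843 on average, against 11.7 to 60.7 for samples of different groups). Each group was therefore counted as 1 sample and summed into 1 library, which leaves n = 3 libraries for each genotype, 1 from each day. KO libraries held 25651250 to 36447639 counts and WT libraries 35025184 to 48717439. Mb21d1, which encodes cGAS, was at 0.239, 0 and 0.127 CPM (the count scaled to the size of its library) in KO and at 4.74, 4.08 and 4.82 CPM in WT on days 33, 36 and 42, which matches the labels. Xist, the RNA of the inactive X chromosome, was at 465 to 641 CPM in KO and at most 0.363 CPM in WT, and 4 Y-linked genes summed to 55.2 to 61.2 CPM in KO and 251 to 298 CPM in WT. Genotype and embryo sex therefore cannot be told apart in any comparison between KO and WT, although no member lies on a sex chromosome. Xist and the Y-linked genes were both present in the KO libraries, and whether the KO cultures held cells of both sexes was not tested. Fibroblast markers summed to 54582 to 66946 CPM in KO and 63017 to 66956 CPM in WT, sums that consist mostly of Fn1, Col1a1 and Col1a2. The 14 markers had a median log2 fold change of -0.66, against -0.01 over all genes. Of them 8 had an unadjusted p below 0.05, against 27.3% of all genes, and 1 (7.14%) was called lower, against 4.65% of all genes. S100a4 was called lower (-0.92 ± 0.13, adjusted p = 0.0133, edgeR), and Thy1 averaged 508 ± 118 CPM in KO and 1102 ± 353 CPM in WT, Postn 596 ± 596 CPM in KO and 1966 ± 350 CPM in WT, and Dcn 12.9 ± 5.38 CPM in KO and 88.6 ± 74.6 CPM in WT (SD, n = 3 each; adjusted p = 0.0567, 0.164 and 0.0658, edgeR). The part of these markers in the members' values was not tested. Macrophage markers summed to 85.9, 10.3 and 7.86 CPM in KO and to 188, 49.0 and 23.5 CPM in WT on days 33, 36 and 42. Single markers did not all follow the sum: Cd14 was at 4.88, 2.80 and 2.08 CPM in KO and 3.95, 2.91 and 1.86 CPM in WT. None of the 16 macrophage markers tested was called between genotypes (1 had an unadjusted p below 0.05), and Adgre1, Lyz2, C1qa, C1qb and C1qc were at 0 in KO on day 42.

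The promoters of 7 members were found in RefSeq, for which 11 windows of 300 bases (250 before to 50 after a start site, build GRCm38.p6) are tabulated. 4 of them are shown: both windows of Banf1, the member that was called, and the Adar windows at which its p110 and p150 transcripts begin. Capitals in the upstream Banf1 window (minus strand) mark TTTCCCGC, a form of the site bound by E2F factors, which regulate genes of the S phase. Capitals in the downstream Adar window (plus strand) mark GAAANNGAA, a short form of the interferon-stimulated response element. The upstream Adar window (plus strand) has no such match, and neither has another Adar window, which overlaps the upstream one and is not shown.
Banf1, upstream window, chr19:5366827-5367126: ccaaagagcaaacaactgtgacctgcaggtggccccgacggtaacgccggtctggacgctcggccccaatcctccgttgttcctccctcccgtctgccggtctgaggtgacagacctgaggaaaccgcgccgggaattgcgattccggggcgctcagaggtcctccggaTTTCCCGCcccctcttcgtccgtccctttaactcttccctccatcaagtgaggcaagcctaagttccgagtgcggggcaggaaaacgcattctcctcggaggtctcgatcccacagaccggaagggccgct
Banf1, downstream window, chr19:5366314-5366613: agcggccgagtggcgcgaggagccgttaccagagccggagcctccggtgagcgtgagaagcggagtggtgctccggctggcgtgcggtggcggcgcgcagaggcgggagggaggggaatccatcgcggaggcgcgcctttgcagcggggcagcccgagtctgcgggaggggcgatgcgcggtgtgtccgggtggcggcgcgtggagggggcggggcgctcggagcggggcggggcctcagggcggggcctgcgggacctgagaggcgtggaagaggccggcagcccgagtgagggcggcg
Adar, downstream first exon, chr3:89730468-89730767: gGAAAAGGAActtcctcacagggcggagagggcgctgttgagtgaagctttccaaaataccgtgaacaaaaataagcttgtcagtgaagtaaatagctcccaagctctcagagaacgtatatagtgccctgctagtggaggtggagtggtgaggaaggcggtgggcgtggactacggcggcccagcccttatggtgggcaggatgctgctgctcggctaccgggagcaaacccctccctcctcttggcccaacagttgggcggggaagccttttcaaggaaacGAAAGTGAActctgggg
Adar, upstream first exon, chr3:89714772-89715071: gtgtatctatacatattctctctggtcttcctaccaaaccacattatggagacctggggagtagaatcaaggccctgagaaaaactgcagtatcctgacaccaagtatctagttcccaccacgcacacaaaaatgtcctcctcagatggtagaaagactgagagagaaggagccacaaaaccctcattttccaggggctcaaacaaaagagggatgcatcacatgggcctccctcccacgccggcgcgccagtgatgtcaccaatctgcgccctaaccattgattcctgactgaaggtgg
Both strands were searched. TTTCCCGC began 81 bases before the start site of the upstream Banf1 window and partly overlapped a match to GGGCGG (GC box) on the other strand; it occurs in 1.07% of the 32851 mouse windows and in no other window of a member. TTTGGCGC, another E2F form, was in no member's window and in 0.514% of all windows. In the downstream Adar window the short response element matched at 249 bases before and 33 bases after the start site, and 8.56% of all windows hold it. The longer form with a further A at its end, held by 3.44% of all windows, was in none of the members' windows, and the short form was chosen after the sequence had been read. A match of letters is not evidence of binding, and none of these windows was assayed here.

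Banf1 was the only member called between the genotypes. It encodes BAF, a small chromatin protein that bridges DNA, binds lamins and competes with cGAS for nuclear DNA. Banf1 (ENSMUSG00000024844, mm10 chromosome 19, 5364638 to 5367168, minus strand) was at 53.6, 51.5 and 55.3 CPM in KO libraries and at 40.3, 42.7 and 40.5 CPM in WT libraries on days 33, 36 and 42. Each KO value lay above each WT value, and neither genotype moved by more than a few CPM between days. The mean was 53.5 ± 1.88 CPM in KO and 41.2 ± 1.29 CPM in WT (SD, n = 3 each). The log2 fold change was 0.38 ± 0.08 (SE; adjusted p = 0.0351, Benjamini-Hochberg over 17233 genes; quasi-likelihood test of edgeR). Of the 7 members that could be measured in the gene table this was 1, against a background of 8.72% of genes called in either direction and 4.07% called higher in KO. All p-values here reflect no more than the spread among these 6 libraries. That spread may be technical, or that of 1 culture line for each genotype. In bulk RNA of this kind, fewer cells of a type and less RNA per cell cannot be told apart.

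The Banf1 difference was present on each day and in both of its transcripts. The KO over WT difference was 0.41 log2 on day 33, 0.27 on day 36 and 0.45 on day 42, each above 0 at its counting interval (exact 95%, counting error only; the lowest bound was 0.17). Neither annotated Banf1 transcript begins in the upstream window, whose start site lies 292 bases downstream of the 5′ end of the transcript with the more upstream start. That transcript was at 36.6, 33.8 and 35.9 CPM in KO and 28.7, 31.2 and 26.7 CPM in WT. The other, which begins at the start site of the downstream window and encodes the same 89 residues, was at 19.1, 19.9 and 21.9 CPM in KO and 12.9 to 15.6 CPM in WT. Neither transcript's KO and WT values overlapped, and the share of the first was 63.6 ± 1.86% in KO and 67.6 ± 3.95% in WT (exact permutation p = 0.2; 0.1 is the smallest p that 3 against 3 allows). The call was lost with day as a factor (adjusted p = 0.0691, where 3.32% of genes were called higher in KO), without the filter on low counts (0.0626), and without any single library or day except WT day 42 (0.0625 to 0.247). The size stayed between 0.35 and 0.49 in every alternative run.

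**Figure D1:**
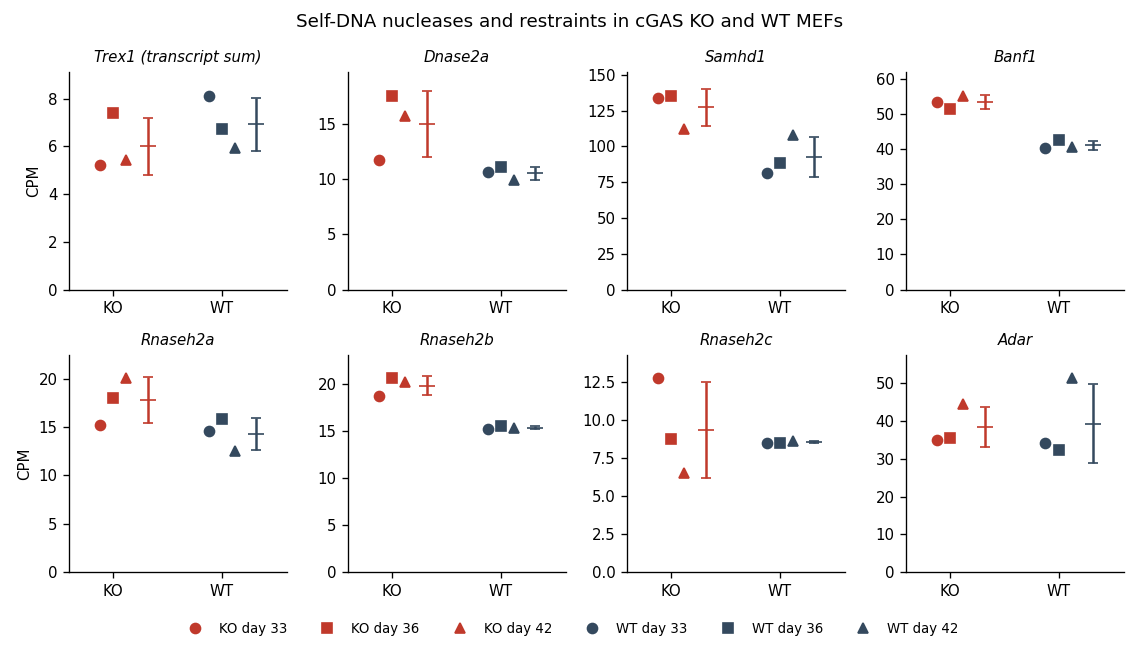
CPM of the 8 genes in each library, KO left of WT, with days 33, 36 and 42 as circles, squares and triangles and the mean ± SD of 3 libraries beside them. Trex1 is the sum of its own transcripts. KO and WT values do not overlap for Dnase2a, Samhd1, Banf1 and Rnaseh2b.

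Samhd1 had the highest count of the members, and its KO values lay above WT by a margin that narrowed with time but was not called. Its product is a phosphohydrolase that breaks down deoxynucleotides and also acts at stalled replication forks, where it limits the release of single-stranded DNA. Samhd1 (ENSMUSG00000027639, chromosome 2, 157097533 to 157135265, minus strand) was at 134, 135 and 112 CPM in KO and at 81.2, 88.5 and 108 CPM in WT on days 33, 36 and 42. The groups did not overlap, but on day 42 KO and WT were nearly level. The log2 fold change was 0.46 ± 0.13 (adjusted p = 0.0858, edgeR), which missed the threshold; without the WT library of day 42 it was 0.59 (adjusted p = 0.0361) and without both libraries of day 42 it was 0.67 (0.0407). DESeq2, which called 7.55% of genes higher in KO, called it at an adjusted p of 0.0264. Samhd1 was called in only 5 of 25 alternatives, among them the fits that took each column as a sample. In the others its adjusted p reached 0.46 (edgeR without both libraries of day 36).

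The daily Samhd1 difference was 0.72 log2 on day 33, 0.61 on day 36 and 0.06 on day 42, and the last had a counting interval that included 0 (-0.0043 to 0.12). With library totals as the only scaling the day 42 difference was 0.18 (0.12 to 0.24). KO fell by 0.25 log2 between days 33 and 42, whereas WT was 0.41 higher on day 42 than on day 33. The difference of the slopes was -0.08 ± 0.02 log2 per day (unadjusted p = 0.013, adjusted p = 0.624, edgeR). No gene was called for a difference of slopes by edgeR, 7.74% had an unadjusted p below 0.05, and DESeq2 called 0.754% but not Samhd1 (adjusted p = 0.328). Macrophages are known to express Samhd1 strongly. The summed level of the macrophage markers was lower in KO than in WT on each of the 3 days, and their part in the Samhd1 values was not tested. The main transcripts encode 658 and 630 residues, and the longer held 52.0 ± 3.07% of the gene's counts in KO and 55.9 ± 3.82% in WT (exact permutation p = 0.2).

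Dnase2a encodes the acid endonuclease of lysosomes, which digests DNA from engulfed cells and from autophagy. Dnase2a (ENSMUSG00000003812, chromosome 8, 84908560 to 84922915, plus strand) was at 11.7, 17.6 and 15.7 CPM in KO and at 10.7, 11.1 and 9.92 CPM in WT on days 33, 36 and 42. WT values lay close together, and the KO library of day 33 stood nearer to WT than to the other KO libraries. Its log2 fold change was the largest of the members in the gene table, 0.51 ± 0.16, but was not called (adjusted p = 0.108, edgeR); without the KO library of day 33 it was 0.66 (adjusted p = 0.0321). Dnase2a was called in only 3 of 25 alternatives, among them the fits that took each column as a sample. In the others its adjusted p was 0.0593 (DESeq2) to 0.448 (edgeR without both libraries of day 36). By day the difference was 0.14 (counting interval -0.06 to 0.33), 0.67 and 0.66 log2. Macrophages are also known for high Dnase2a. In KO their markers had the highest sum on day 33, the day of the lowest Dnase2a. In WT the sum was also highest on day 33, whereas Dnase2a was highest on day 36, and both were lowest on day 42. The part of these markers in the Dnase2a values was not tested. Overlapping Mast1 on the other strand covers 11013 bases of the gene and was at 2.42 to 3.13 CPM in KO and 2.32 to 2.87 CPM in WT.

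Trex1, the main exonuclease that degrades cytosolic DNA from its 3′ ends, could not be read from the gene table. Its row (ENSMUSG00000049734, chromosome 9, 109057933 to 109059734, minus strand) has a length of 0 and 0 counts in all 6 libraries, as do all 977 genes of length 0 in the table. The lengths of 5 of the other 7 members equal their exon bases without those shared with another gene, and the whole of Trex1 lies inside Atrip, a DNA damage checkpoint gene on the same strand. The same calculation over all transcripts listed under the name Trex1 left 1814 bases, not 0. The cause of the length of 0 was not tested. A second row carrying the name Trex1 is the readthrough of both genes, at 0.597 to 0.811 CPM in KO and 0.513 to 0.745 CPM in WT. Trex1 was therefore taken from the deposited transcript table as the sum of the 2 transcripts of Trex1 alone, both of which encode 314 residues, a choice made after the data were seen.

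On that measure Trex1 was at 5.20, 7.38 and 5.44 CPM in KO and at 8.12, 6.73 and 5.94 CPM in WT on days 33, 36 and 42. The groups overlapped. The log2 fold change was -0.21 ± 0.20 (adjusted p = 0.559, edgeR on transcript sums over 17992 genes, of which 8.01% were called). The KO over WT difference was -0.64 log2 on day 33 (counting interval -0.91 to -0.38), and on days 36 and 42 its interval included 0; with library totals as the only scaling the day 36 difference was 0.31 (0.04 to 0.58). Transcripts that span Atrip and Trex1 share these exons, so the division of reads between them is an estimate. The counting intervals leave out the error of this division. On day 33 the spanning transcripts differed in the opposite direction. Atrip-204 was at 3.03 CPM in KO and 2.27 CPM in WT, and Atrip-205 at 2.91 CPM in KO and 1.02 CPM in WT. Whether the day 33 difference lies in Trex1 or in the division of reads was not tested. A share was taken of the counts of all transcripts listed under the name Trex1, which leaves out the other transcripts of Atrip. The transcripts of Trex1 alone held 46.7, 61.6 and 49.5% of it in KO and 71.2, 63.1 and 54.3% in WT (exact permutation p = 0.2). With counts divided by transcript length they held 77.7, 85.3 and 79.6% in KO and 90.8, 85.9 and 80.9% in WT. The sum of macrophage markers in WT was also highest on day 33 and lowest on day 42, as Trex1 was in WT. In KO the sum was likewise highest on day 33, the day of the lowest Trex1 in KO. The part of these markers in the Trex1 values was not tested.

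RNase H2 cuts RNA paired with DNA and starts the removal of single ribonucleotides from the genome; Rnaseh2a encodes its catalytic subunit and Rnaseh2b and Rnaseh2c the 2 auxiliary subunits. Over the 6 libraries Rnaseh2a and Rnaseh2b had like profiles (Pearson r of log2 CPM 0.81), whereas Rnaseh2c differed from both (r = -0.44 with Rnaseh2a and -0.05 with Rnaseh2b). Rnaseh2b (ENSMUSG00000021932, chromosome 14, 62292589 to 62372992, plus strand) was at 18.7, 20.6 and 20.1 CPM in KO and at 15.2, 15.5 and 15.3 CPM in WT on days 33, 36 and 42. The groups did not overlap and the spread within each was small. The log2 fold change of 0.37 ± 0.09 fell just outside the threshold (adjusted p = 0.0505, edgeR) and was called by DESeq2 (0.0116), with upper-quartile factors (0.0472) and with library totals as the only scaling (0.0402). The last of these moves the median of all genes to 0.11, and Rnaseh2b to 0.48. Rnaseh2b was called in 7 of 25 alternatives, among them the fits that took each column as a sample. It was not called with day as a factor (adjusted p = 0.0812, edgeR) or without the filter on low counts (0.0887). Nor was it called when any single library or day was left out (0.0573 to 0.367).

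Rnaseh2a (ENSMUSG00000052926, chromosome 8, 84956610 to 84969767, minus strand) was at 15.3, 18.1 and 20.1 CPM in KO and at 14.6, 15.8 and 12.5 CPM in WT on days 33, 36 and 42. The KO library of day 33 lay below the WT library of day 36, so the groups overlapped. The log2 fold change was 0.31 ± 0.14 (adjusted p = 0.215, edgeR), and the daily difference was 0.07, 0.19 and 0.68 log2. KO on day 42 was 0.40 log2 above KO on day 33 (counting interval 0.23 to 0.56), while WT fell by 0.22 over the same days. Retained-intron and other noncoding forms took 38.1 ± 6.35% of its counts in KO and 37.8 ± 6.14% in WT.

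Rnaseh2c (ENSMUSG00000024925, chromosome 19, 5601873 to 5607019, plus strand) was at 12.7, 8.73 and 6.54 CPM in KO and at 8.52, 8.48 and 8.63 CPM in WT on days 33, 36 and 42. WT stayed nearly level, while KO values lay on both sides of it. KO fell by 0.96 log2 between days 33 and 42 (counting interval of the difference -1.19 to -0.74), and WT differed by 0.02 over the same days. The genotype difference was 0.58 log2 on day 33, 0.04 on day 36 and -0.40 on day 42. Over the 3 days the log2 fold change was 0.13 ± 0.24 (adjusted p = 0.777, edgeR), and its sign turned without the KO library of day 33 (-0.16) or without both libraries of day 33 (-0.17). The difference of slopes was -0.10 ± 0.03 log2 per day (unadjusted p = 0.0241, adjusted p = 0.626). Kat5, an acetyltransferase gene on the other strand, overlaps 4006 bases of Rnaseh2c and was at 22.9 to 25.6 CPM in KO and 21.5 to 24.9 CPM in WT.

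Per length, the ratios of Rnaseh2a and of Rnaseh2b to Rnaseh2c differed more between KO days than between WT days. The ratio of Rnaseh2a to Rnaseh2c in RPKM (the read count scaled to gene length and library size, as deposited) was 0.370, 0.638 and 0.947 in KO and 0.530, 0.577 and 0.448 in WT on days 33, 36 and 42. The ratio of Rnaseh2b to Rnaseh2c was 0.245, 0.392 and 0.513 in KO and 0.298, 0.306 and 0.295 in WT. In both ratios the KO libraries thus stood on both sides of WT, below it on day 33 and above it on day 42. The ratio of Rnaseh2a to Rnaseh2b was 1.51, 1.63 and 1.85 in KO and 1.78, 1.89 and 1.52 in WT. Its range was not wider in KO than in WT. With 1 library per genotype and day these ratios have no test of their own.

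**Figure D2:**
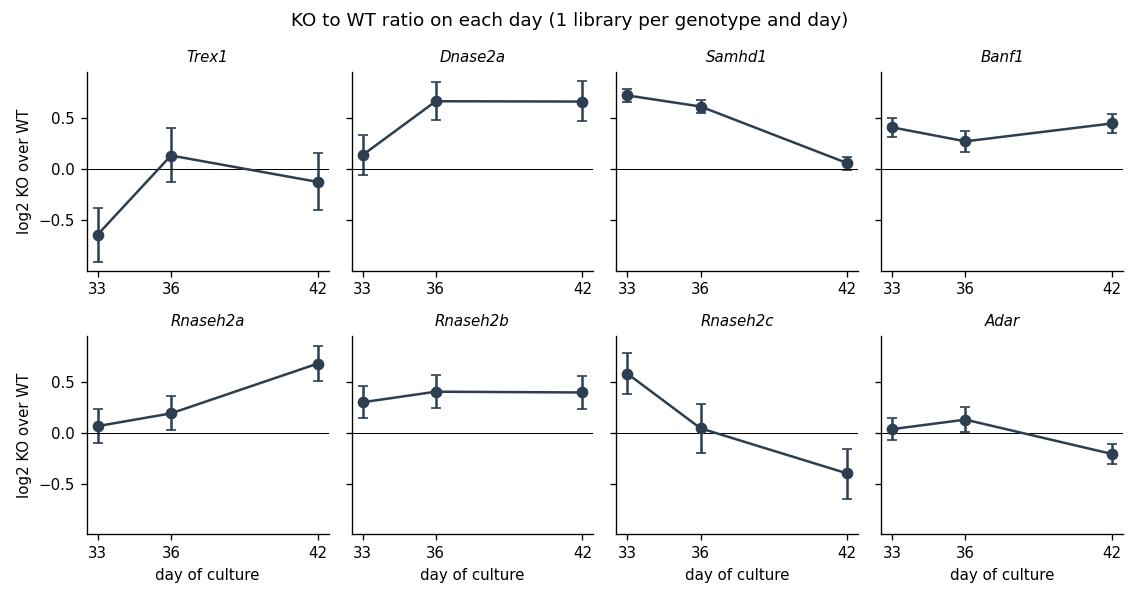
KO over WT difference of each gene on days 33, 36 and 42, in log2 CPM, with exact 95% counting intervals from 1 library per genotype and day. Rnaseh2b and Banf1 stay above 0 at a similar height, Samhd1 and Rnaseh2c decline (Rnaseh2c to -0.40 on day 42), and Rnaseh2a and Dnase2a are highest on day 42 and on days 36 and 42.

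Adar encodes the deaminase that turns adenosine into inosine in paired RNA, and so hides a cell's own RNA from MDA5. Adar (ENSMUSG00000027951, chromosome 3, 89715022 to 89753446, plus strand) was at 35.1, 35.5 and 44.5 CPM in KO and at 34.2, 32.5 and 51.4 CPM in WT on days 33, 36 and 42. Day 42 was the highest in both genotypes, which held for 1 of the 7 members and for 20.1% of all genes, and the genotypes overlapped. The KO over WT log2 fold change was -0.04 ± 0.20 (adjusted p = 0.932, edgeR), a direction that flips with library totals as the only scaling (0.07). The slope over both genotypes was 0.06 ± 0.02 log2 per day (unadjusted p = 0.0106, adjusted p = 0.284). No gene was called for a slope by edgeR, 14.7% had an unadjusted p below 0.05, and DESeq2 called 2.63% but not Adar (adjusted p = 0.0881). On day 42 the KO library was 0.34 log2 above day 33 and the WT library 0.59.

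The share of Adar RNA from each first exon overlapped between the genotypes. The downstream first exon, whose window holds the short response element, begins the long p150 form (transcripts of 1178 and 1152 residues), which is known to be induced by interferon. The upstream exon begins a transcript of 930 residues, the shorter and mainly nuclear p110 form. Transcripts from the downstream exon were at 23.8, 22.2 and 28.6 CPM in KO and at 18.5, 22.2 and 34.1 CPM in WT on days 33, 36 and 42. These sums include a shorter transcript of 660 residues, at 0 to 1.98 CPM. All transcripts from the downstream exon made up 52.2, 48.7 and 51.0% of the total from both exons in KO and 43.5, 52.6 and 52.2% in WT. The lowest and the highest share were both in WT, and the difference of 1.25 percentage points between the means was smaller than the SD of 5.15 points in WT (exact permutation p = 0.9). The transcripts of 1178 and 1152 residues made up 52.5, 46.7 and 51.0% of these and the 930-residue transcript in KO. In WT they made up 43.4, 51.8 and 51.4% (exact permutation p = 0.7). The gene table holds 77.4% of the summed transcript counts of Adar, the lowest share of the 7 members, and leaves out 1369 exon bases that Adar shares with other genes.

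**Figure D3:**
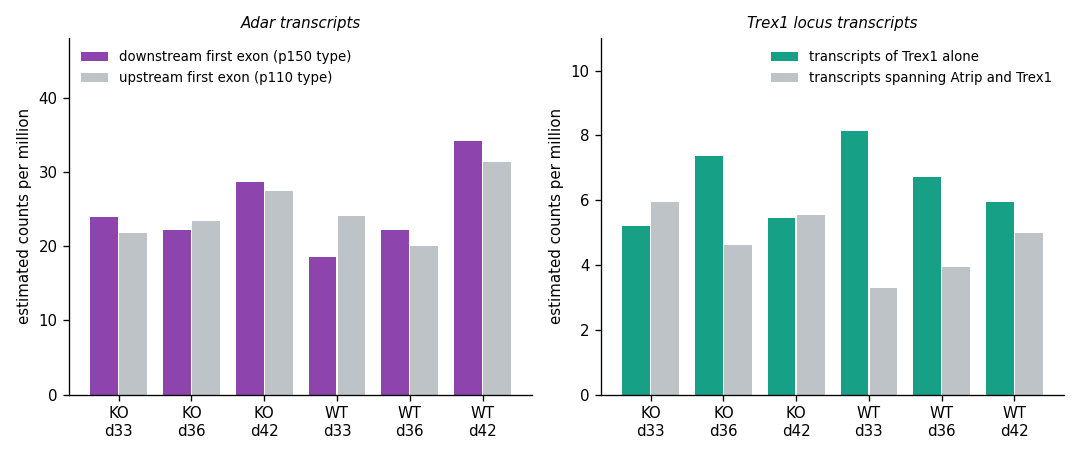
CPM from estimated counts, not divided by length, of Adar transcripts from either first exon (left) and of Trex1 transcripts and transcripts spanning Atrip and Trex1 (right), KO libraries left of WT libraries. Adar is highest on day 42 in both genotypes and from both exons, and Trex1 in WT is highest on day 33 (8.12 CPM).

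Across the members, 6 of the 7 in the gene table had a positive log2 fold change, with a median of 0.37 against -0.01 for all genes tested. KO and WT did not overlap for 4 of them, Banf1, Rnaseh2b, Samhd1 and Dnase2a, each with KO above WT, a pattern of 17.2% of all genes. The same 4 had an unadjusted p below 0.05, against 27.3% of all genes. The KO value exceeded WT beyond counting error for 4 of the 7 on day 33, 6 on day 36 and 4 on day 42, against 26%, 27.9% and 31.5% of all genes. It was below WT for 0 of the 7 on days 33 and 36 and for 2, Rnaseh2c and Adar, on day 42, against 27.7%, 30.2% and 33.2% of all genes. With library totals as the only scaling the Adar interval of day 42 included 0 (-0.185 to 0.00642), and that of Samhd1 lay above 0. Per length, Banf1 had the highest level of the 7, with a mean RPKM of 35.4 in KO and 25.7 in WT. Samhd1 followed with 7.56 in KO and 5.21 in WT, and Rnaseh2c with 4.90 in KO and 4.25 in WT. Adar, Rnaseh2a, Dnase2a and Rnaseh2b came next in that order, in KO as in WT, down to 1.75 in KO and 1.27 in WT for Rnaseh2b. In KO each neighbouring pair from Rnaseh2c downward overlapped in range, and in WT only Rnaseh2c and Adar did.

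**Figure D4:**
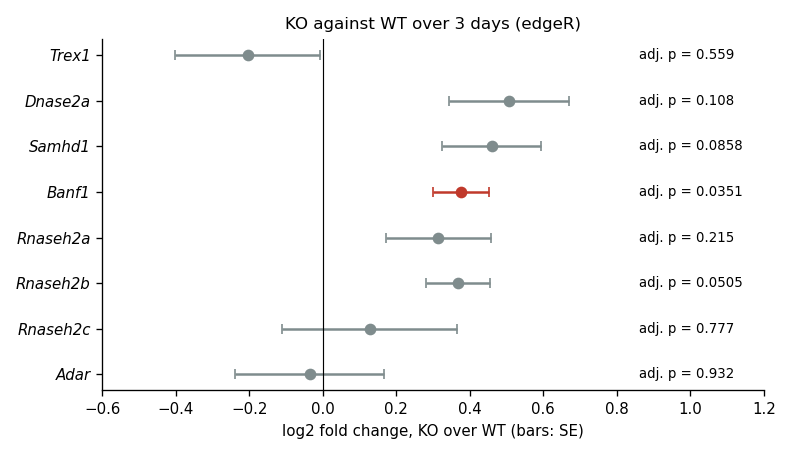
Log2 fold change, KO over WT, of each gene over 3 days with its SE, with the adjusted p from edgeR at the right. Banf1, in red, is the only one with an adjusted p below 0.05 (0.0351), and Trex1 and Adar lie left of 0.

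Over the 6 libraries Rnaseh2b and Banf1 had the closest profiles among the members (Pearson r of log2 CPM 0.95), followed by Rnaseh2b and Dnase2a (0.92) and by Rnaseh2a and Dnase2a (0.89). Rnaseh2a and Dnase2a lie 33.7 kb apart on chromosome 8, and Banf1 and Rnaseh2c, with r = 0.07, lie 235 kb apart on chromosome 19. Among 10235 genes compared, the profile nearest to Rnaseh2b was that of Hira, a histone chaperone gene, and next came Kif4, a mitotic kinesin gene (r = 0.998). Nearest to Dnase2a were Hnrnpdl, Thrap3 and Cdk4, and nearest to Samhd1 were Sbf1, Slc25a26 and Sbf2. Vps54, Pkp1 and Myo19 were nearest to Banf1, Thbd, Dbnl and Med9 to Rnaseh2c, and Hdac8, Adgrl1 and Runx1t1 to Adar. Ptbp2, Pum2 and Snhg5 were nearest to Rnaseh2a, and Cmtm3, Nudt12 and Slc10a7 to Trex1. With 6 points that share the genotype difference, these correlations describe the libraries only; 28 to 901 genes had an r over 0.9 with a given member of the gene table.

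Lists of genes that work with the members are given beside the shares of all genes that were higher (4.07%) or lower (4.65%) in KO, and differences between lists were not tested. Of 28 other nuclease genes tested, 2 (7.14%) were higher in KO and 0 lower (median log2 fold change 0.11). They were Exo1, the exonuclease of mismatch repair and end resection, at 21.4, 24.9 and 27.4 CPM in KO and 13.1, 10.9 and 10.9 CPM in WT, and Eme1, a subunit of a structure-specific endonuclease (log2 fold change 0.84 ± 0.17, adjusted p = 0.0367). Rnaseh1, the other RNase H gene, had a log2 fold change of -0.03 ± 0.11. Among 14 partners of BAF, 4 (28.6%) were higher and 0 lower (median 0.09): Tmpo, Lmnb1, Lmnb2 and Vrk1. Lmnb1, the B-type lamin that is known to decline in senescent cells, was at 73.3, 76.8 and 92.6 CPM in KO and 47.2, 45.1 and 37.0 CPM in WT. Vrk1, the kinase that releases BAF from DNA, differed by 0.67 ± 0.13 log2 (adjusted p = 0.0343).

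Of 20 genes of deoxynucleotide supply, the pool that Samhd1 depletes, 8 (40%) were higher in KO and 0 lower (median 0.33), and with day as a factor 5 were. Tyms, thymidylate synthase, differed by 0.71 ± 0.11 log2 (adjusted p = 0.0182) and Tk1, thymidine kinase, by 0.76 ± 0.13 log2 (adjusted p = 0.0234). Rrm2, the small subunit of ribonucleotide reductase, was not called (0.28 ± 0.14, adjusted p = 0.235). DNA replication genes, the setting in which RNase H2 removes ribonucleotides, had 23 of 40 (57.5%) higher in KO and 0 lower (median 0.61). Uhrf1, which guides maintenance methylation of new DNA, was at 49.3, 53.6 and 56.6 CPM in KO and 25.4, 22.6 and 20.4 CPM in WT, and Mcm10, a replication initiation factor, was at 23.4, 25.1 and 29.5 CPM in KO and 13.4, 12.5 and 12.6 CPM in WT. The part of the replication genes in the members' values was not tested.

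Among genes of nucleic acid sensing, 2 of 20 sensors and adaptors tested (10%) were higher in KO and 2 (10%) lower (median -0.34). The higher ones were Ttll4, whose enzyme glutamylates cGAS (0.79 ± 0.15, adjusted p = 0.0302, edgeR), and Nlrc3, which restrains STING (0.67 ± 0.15, adjusted p = 0.0473). The lower ones were Mb21d1 and Mavs. Mb21d1, the gene that was knocked out, had a log2 fold change of -5.11 ± 0.62, a difference fixed by the design. Mavs, the adaptor of RNA sensing, was at -0.37 ± 0.08 (adjusted p = 0.0446, edgeR). Beyond the knocked-out gene, the share of 10% lower therefore rested on Mavs alone. With day as a factor 1 was higher, Ttll4, and 1 lower, Mb21d1. Ifih1, which encodes MDA5, the sensor that Adar editing restrains, was at 3.74, 4.25 and 4.13 CPM in KO and 5.79, 5.46 and 9.40 CPM in WT, without overlap (-0.77 ± 0.24, adjusted p = 0.0974). Tmem173, which encodes STING, was not called (0.22 ± 0.24, adjusted p = 0.60). Of 23 interferon-stimulated genes tested, 0 were higher and 2 (8.7%) lower, Trim25 (-0.95 ± 0.18, adjusted p = 0.0308) and Ifi27l2a (-3.62 ± 0.71, adjusted p = 0.0324), and the median was -0.45. Ifi27l2a was low in all libraries, at 0.150, 0.0746 and 0.0254 CPM in KO and 1.47, 1.19 and 0.401 CPM in WT. The calls in the lists, like those over all genes, depended on the libraries included. In the 5 lists with genes called higher, none was called higher without KO day 36 or without both libraries of day 36, and without KO day 42 the replication list had 2 and the others none. Over all genes, calls higher in KO fell from 701 to 2 once KO day 36 was dropped. They fell to 0 with neither library of day 36, and to 18 once KO day 42 was dropped. Calls lower in KO fell from 802 to 22, 3 and 50 in the same fits. These counts therefore do not set the lists apart from other genes. The deoxynucleotide list also had none without WT day 33, WT day 36 or both libraries of day 42. Those fits called 89, 253 and 240 of all genes higher. Of the interferon-stimulated genes none was called lower without KO day 36, KO day 42, WT day 33 or both libraries of day 33 or of day 36. Of the sensors none was called lower without KO day 42 or both libraries of day 36 or of day 42. None of them was called higher without WT day 33, WT day 36, WT day 42 or both libraries of day 33 either.

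**Figure D5:**
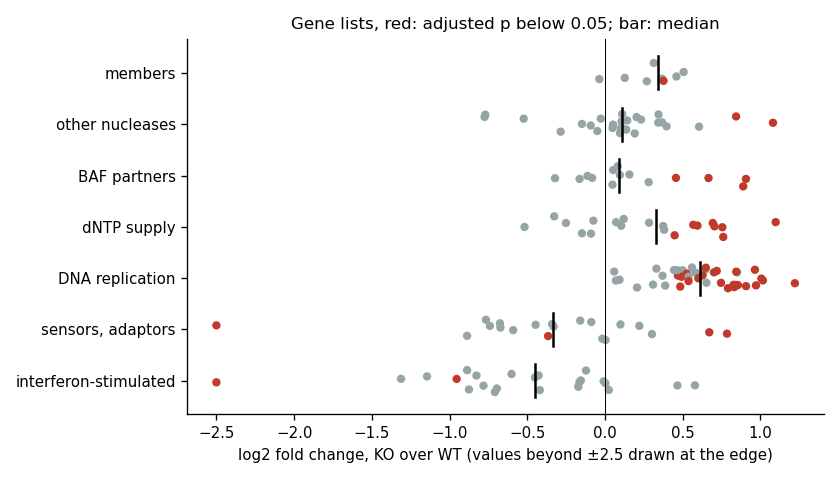
Log2 fold change, KO over WT, of each tested gene of the lists, with genes at an adjusted p below 0.05 in red and the list's median as a bar. The DNA replication genes centre on 0.61 and the interferon-stimulated genes on -0.45. The row of members holds the 7 genes measured in the gene table and the readthrough row named Trex1.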

How the data were processed

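Poly(A)-selected stranded libraries were sequenced, per the labels' protocols. The submitters' processing notes list the build mm10 and the tools limma 3.18.13 and Bowtie2 2.2.1, with no role for either. Which counter was used, and whether it used strand, is not given in the sources used here, so a gene and its antisense partner may share reads. The authors deposited estimated counts (fractional, not normalized) and RPKM values per gene and transcript, per the file headers.

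The 4 columns of a group were summed and rounded. CPM use TMM-scaled totals. KO and WT, the slope per day and the difference of slopes were tested with edgeR 4.0.16 (filterByExpr, robust quasi-likelihood, Benjamini-Hochberg, threshold 0.05) in R 4.3.3. Of 45706 genes 17233 were tested. Each SE is approximate: the size of the log2 value over the root of its F statistic. Alternative tests used limma-voom (limma 3.58.1) and DESeq2 1.42.0, and others changed the scaling or filter, or were fits without libraries, days or columns. The code was tested on simulated data. Identical transcripts, which carry equal counts, were counted once; 98.7% of transcripts matched GENCODE M21, which gave the coordinates. Exact permutation tests of transcript shares were two-sided, over 15 shares; adjusted values were 0.75 to 1. Named are the members, up to 4 genes of each list with the smallest adjusted p, list genes with a role beside a member, and the 3 genes nearest to each member; the macrophage and fibroblast markers were named after their values were seen. Members and lists were chosen with earlier results of these data known.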

Additional observations from a re-analysis of the deposited data

How the results depend on the processing

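Banf1, Samhd1, Rnaseh2a, Rnaseh2b and Dnase2a kept a positive log2 fold change in each of 25 alternatives; Rnaseh2c kept its sign in 23 and Adar in 20. Genes called between genotypes, 1503 in the main test, numbered 2855 by DESeq2, and 3 to 1811 when a library, a day or a column was left out (24 and 68 when the KO libraries of days 36 and 42 were dropped, 254 and 738 for the WT libraries of days 33 and 36, and 429, 3 and 539 for both libraries of days 33, 36 and 42). Members called, 1 in the main test, numbered 3 by DESeq2, 2 with upper-quartile factors or library totals only, 0 with no filter or with day as a factor, and 0 to 2 when a library, a day or a column was left out. For slopes 0 genes were called and 453 by DESeq2; for differences of slopes 0 and 130. Replicate numbers did not pair the samples (correlations of same-numbered deviations -0.032 to 0.033, median 0.003, 60 pairs). With 24 columns as samples, whose spread is only the sampling noise of 1 library, 10516 genes and 5 members were called with a replicate block and 10520 and 5 without it; with the block 6704 genes and 2 members had a slope and 5289 genes and 3 members a difference of slopes.

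The Adar fold change was 0.0743 with library totals only, and -0.16 to 0.21 with a library, a day or a column left out; for Rnaseh2c that range was -0.17 to 0.34. Slopes whose sign turned in such fits ranged from -0.0240 to 0.0426 for Samhd1, -0.0174 to 0.0404 for Rnaseh2a, -0.0014 to 0.0136 for Rnaseh2b, -0.0182 to 0.0321 for Dnase2a and -0.0023 to 0.0081 for Banf1. Differences of slopes ranged from -0.0058 to 0.0429 for Rnaseh2b, -0.0135 to 0.205 for Dnase2a, -0.0207 to 0.0195 for Banf1 and -0.0695 to 0.0651 for Adar. The cause of these changes was not tested. Trex1 rested on 174 to 380 counts per library, the fewest of the members; its difference on day 42 was not detectable at this depth, and that on day 36 was beyond its counting interval with library totals but not with TMM or RLE scaling.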
